A study of Danio rerio with 16 samples.

Results

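The neural plate border is the strip of ectoderm between the future brain and the future epidermis, and the sensory placodes and the neural crest arise from it. In vertebrates, BMP, FGF and Wnt signals place this border during gastrulation, and retinoic acid (RA), which turns on gene transcription through the retinoic acid receptors, patterns the neighbouring neural plate from head to tail. The 4 genes of this region described here were measured in zebrafish embryos. The forkhead factor gene foxi1 is needed for the zebrafish otic placode, which forms the inner ear. The homeodomain factor gene dlx3b acts with its neighbour dlx4b in the otic and olfactory placodes, and zic2a and zic6 encode zinc-finger factors of the Zic family, which is active in the dorsal neural plate and its border.

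The members were all probe sets that the platform annotation assigns to foxi1, dlx3b, zic2a or zic6, which gave 5 probe sets of 4 genes among 15617 probe sets on the array. There were 2 probe sets for zic2a, a brighter and a dimmer one, and 1 for each of the other genes. All 5 were among the 11843 probe sets that passed the filter on low values, which asked for a log2 intensity above 4 on at least 4 of the 16 arrays. The label of a border and placode set rests on what these genes are known for, since whole embryos were measured and the cells that carry the RNA were not separated.

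Total RNA of whole wild-type zebrafish embryos, from an incross of AB/Wik hybrid parents, was measured on Affymetrix arrays at 11 hours post fertilization (hpf), with 4 samples in each of 4 groups. The groups were all-trans RA at 0.33 µM, the synthetic RA receptor antagonist AGN193109 at 10 µM, the same antagonist at 1 µM, and the solvent dimethyl sulfoxide (DMSO) at 2%. All embryos were dechorionated and all compounds were diluted from stocks in DMSO. The DMSO percentage is recorded for the solvent group only, so whether the RA and AGN193109 groups held the same level is not known here. RA was added at 6.5 hpf and acted for 4.5 hours, whereas AGN193109 and DMSO were added at 5.25 hpf and acted for 5.75 hours, so that in every comparison of RA the agent and the length of exposure cannot be told apart. The titles spell the antagonist AGN193019 and the protocol gives the doses in mM; the spelling and the µM doses of the design text were used. The design text calls the 16 samples independent and names no batch.

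Array medians ran from 72.8 to 78.3 on the linear intensity scale. Replicates 1 and 4 of AGN193109 at 1 µM had mean correlations of 0.967 and 0.966 to arrays of other groups, against 0.978 for replicates 2 and 3. To arrays of their own dose, replicates 1 to 4 had similar mean correlations of 0.976, 0.9777, 0.9756 and 0.9755. Among DMSO arrays, replicate 3 had 0.968, against 0.979 for the other DMSO arrays, and it held the lowest DMSO value of all 5 member probe sets. RA replicate 1 held the lowest RA value of 3 of the 5. As a check of the exposures, the RA-induced genes cyp26a1, hoxb5a and dhrs3a were higher by 3.47, 5.46 and 3.91 on the log2 scale in RA than in DMSO embryos, and dhrs3a was at least 7.20-fold lower at either dose of AGN193109 than in DMSO. For cyp26a1 the log2 differences from DMSO were -0.97 at 10 µM (limma, adjusted p = 0.314) and -0.44 at 1 µM (adjusted p = 0.749). For hoxb5a they were -0.84 (adjusted p = 0.145) and -0.42 (adjusted p = 0.745), so neither gene passed an adjusted p under 0.05.

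Under RA, foxi1, zic2a and dlx3b fell, with log2 differences of -2.97, -1.87 and -1.22, while zic6 lay slightly below its DMSO level without passing the test. By contrast, zic6 was the one member gene with a called difference from DMSO under the antagonist: it rose 1.74-fold at 1 µM, and at 10 µM its 4 arrays lay above all 4 DMSO arrays without passing the test. The zic6 call at 1 µM ended in 6 of the 8 fits that left out 1 array. It also ended in the fit of only the 2 groups (limma, adjusted p = 0.362). Neither dose gave a called difference for foxi1, dlx3b or zic2a. A probe set is called here at an adjusted p under 0.05, from a linear model (limma) over all 16 arrays with Benjamini-Hochberg adjustment over all 11843 probe sets of a comparison. In whole-embryo RNA, fewer cells of a type and less RNA per cell cannot be told apart. The plot of the member values by array shows every measurement behind these statements.

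**Figure D1:**
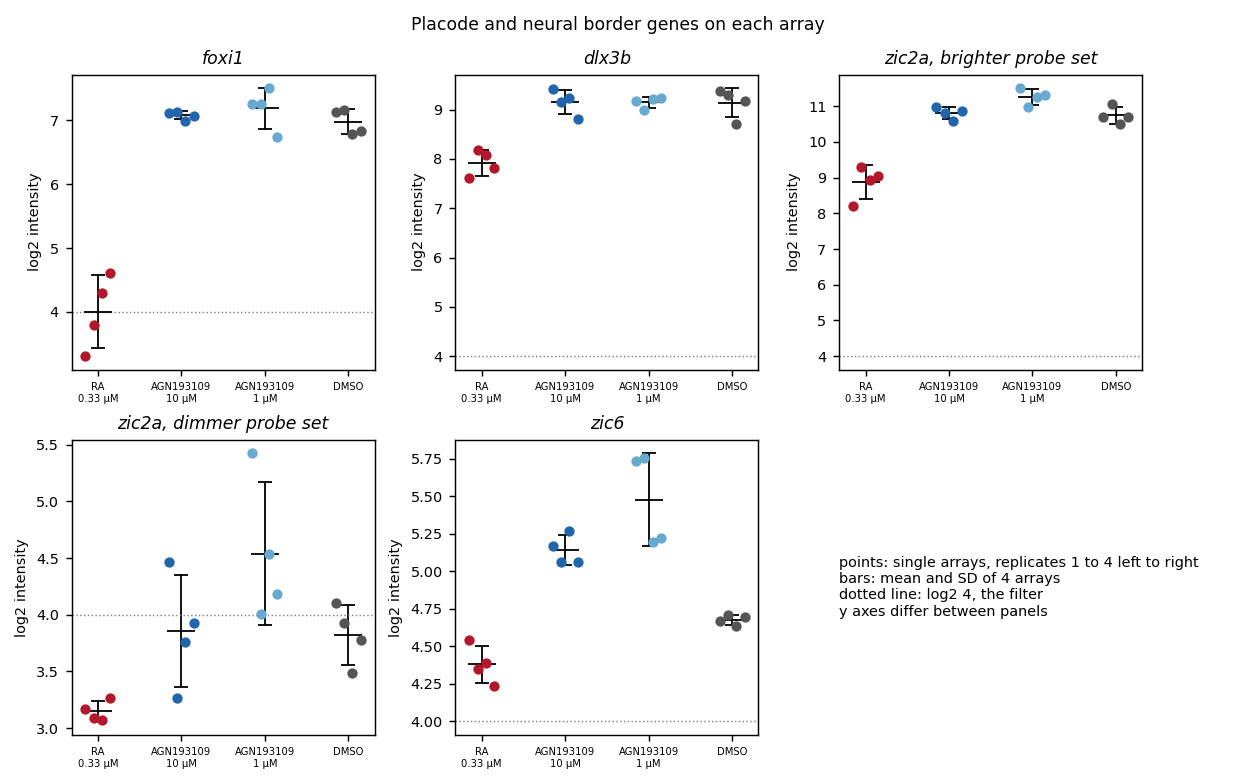
Log2 intensity of the 5 member probe sets on each of the 16 arrays, in 4 groups of 4, with group means and standard deviations as bars and the filter level of log2 4 as a dotted line; the y axes differ between panels. All 4 RA arrays lie below all 4 DMSO arrays in every panel, and in the zic6 panel both antagonist groups lie above DMSO.

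For foxi1, the log2 intensities in replicates 1 to 4 were 3.31, 3.80, 4.30 and 4.61 in RA embryos, 7.12, 7.14, 7.00 and 7.07 under AGN193109 at 10 µM, 7.25, 7.26, 7.50 and 6.75 at 1 µM, and 7.13, 7.16, 6.79 and 6.84 in DMSO embryos. The RA arrays lay far below all others and varied most among themselves, and the antagonist and DMSO ranges overlapped. On the linear scale the RA arrays read 9.89 to 24.4 and the DMSO arrays 110.3 to 143, and 2 of the 4 RA arrays were at or below log2 4, near the bottom of the scale. The means were 4.00 ± 0.57 in RA and 6.98 ± 0.19 in DMSO (SD, n = 4 each), a log2 difference of -2.97 with a 95% interval of -3.45 to -2.50 (adjusted p = 5.67e-08). With 16 added to every intensity before the log, the difference was -2.13 (adjusted p = 5.98e-08), so its size depends on the low end of the scale. The antagonist means of 7.08 ± 0.06 at 10 µM and 7.19 ± 0.32 at 1 µM (SD, n = 4 each) exceeded the DMSO mean by 0.10 (95% interval -0.37 to 0.57, adjusted p = 1.0) and 0.21 (95% interval -0.26 to 0.68, adjusted p = 0.845) on the log2 scale. No other gene of the 4 listed for the Foxi family had a probe set under its own name. In order of level, RA was lowest, and DMSO and both antagonist doses did not differ beyond their spread.

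For zic2a, the brighter probe set read 8.19, 9.30, 8.92 and 9.05 in RA embryos, 10.98, 10.81, 10.60 and 10.86 under AGN193109 at 10 µM, 11.51, 10.97, 11.26 and 11.31 at 1 µM, and 10.71, 11.05, 10.51 and 10.69 in DMSO embryos, as log2 intensities. The RA arrays were again below all others. The RA mean of 8.87 ± 0.48 was lower than the DMSO mean of 10.74 ± 0.23 (SD, n = 4 each) by a log2 difference of -1.87 (95% interval -2.29 to -1.45, adjusted p = 3.75e-06), which is a 3.66-fold lower level. At 1 µM of the antagonist the mean was 11.26 ± 0.22 (SD, n = 4), and 3 of its 4 arrays exceeded every DMSO array. That difference of 0.52 on the log2 scale (95% interval 0.10 to 0.94) had an unadjusted p of 0.0174 in limma and an adjusted p of 0.745, so it was not called. At 10 µM the mean of 10.81 ± 0.16 (SD, n = 4) was within the DMSO range, with a difference of 0.07 (95% interval -0.35 to 0.49). RA was lowest in level, DMSO and AGN193109 at 10 µM overlapped, and 1 µM lay highest without a called difference from either.

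The dimmer zic2a probe set lay close to the filter level. Its log2 intensities were 3.17, 3.09, 3.07 and 3.27 in RA embryos, 4.47, 3.26, 3.76 and 3.93 under AGN193109 at 10 µM, 5.43, 4.01, 4.54 and 4.18 at 1 µM, and 4.10, 3.93, 3.48 and 3.78 in DMSO embryos. All 4 RA arrays and 3 of the 4 DMSO arrays were at or below log2 4, so no fold is given between them. The RA arrays nevertheless lay below all DMSO arrays. Both probe sets had their highest group mean at 1 µM of the antagonist and their lowest in RA. The dimmer one was above log2 4 on all 4 arrays at 1 µM and passed the filter only through them. Its high mean at 1 µM is therefore no separate support for that of the brighter one. Since the dimmer probe set had little room to fall, the differences of both probe sets between RA and DMSO are not compared in size.

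For dlx3b, the log2 intensities were 7.61, 8.19, 8.09 and 7.81 in RA embryos, 9.42, 9.15, 9.24 and 8.82 under AGN193109 at 10 µM, 9.18, 8.99, 9.22 and 9.23 at 1 µM, and 9.37, 9.30, 8.71 and 9.18 in DMSO embryos. Every RA array lay below every other array, and the other groups shared the same range. The RA mean of 7.92 ± 0.26 was 2.33-fold below the DMSO mean of 9.14 ± 0.30 (SD, n = 4 each; log2 difference -1.22, 95% interval -1.57 to -0.86, adjusted p = 8.48e-05). Both antagonist means were 9.15, with SDs of 0.25 at 10 µM and 0.11 at 1 µM (n = 4 each), and each differed from DMSO by 0.01 with a 95% interval of -0.34 to 0.37. No member gene stayed closer to its DMSO mean under both doses.

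For zic6, the log2 intensities were 4.54, 4.35, 4.39 and 4.24 in RA embryos, 5.17, 5.06, 5.27 and 5.06 under AGN193109 at 10 µM, 5.73, 5.75, 5.20 and 5.22 at 1 µM, and 4.67, 4.71, 4.63 and 4.69 in DMSO embryos. All RA arrays were below, and all antagonist arrays above, the narrow DMSO range. The mean at 1 µM, 5.48 ± 0.31, was 1.74-fold above the DMSO mean of 4.68 ± 0.03 (SD, n = 4 each; log2 difference 0.80, 95% interval 0.52 to 1.08, adjusted p = 0.0167). At 10 µM the mean was 5.14 ± 0.10 (SD, n = 4), and the difference of 0.46 (95% interval 0.18 to 0.75) had an unadjusted p of 0.00304 and an adjusted p of 0.36 in limma. In RA the mean was 4.38 ± 0.13 (SD, n = 4), and the difference of -0.30 had an unadjusted p of 0.0417 and an adjusted p of 0.34. The order of the group means was RA, DMSO, 10 µM, 1 µM, but replicates 3 and 4 at 1 µM lay inside the range of the 10 µM arrays, and the doses did not differ by the test (log2 difference -0.34, adjusted p = 0.554).

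The zic6 call at 1 µM depended on which arrays entered. It ended without any 1 of DMSO replicates 1, 2, 3 or 4 (adjusted p = 0.0800, 0.0566, 0.0596 and 0.0632) and without replicate 1 or 2 of the antagonist at 1 µM (adjusted p = 0.0561 and 0.0739). It held without replicate 3 or 4, and the log2 difference stayed between 0.71 and 0.89 in all 8 of these fits. Without both replicates of that dose with the lower correlations to other groups, 1 and 4, the difference was 0.80 with an adjusted p of 0.0634. The calls of foxi1, zic2a and dlx3b under RA held without any single array.

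**Figure D2:**
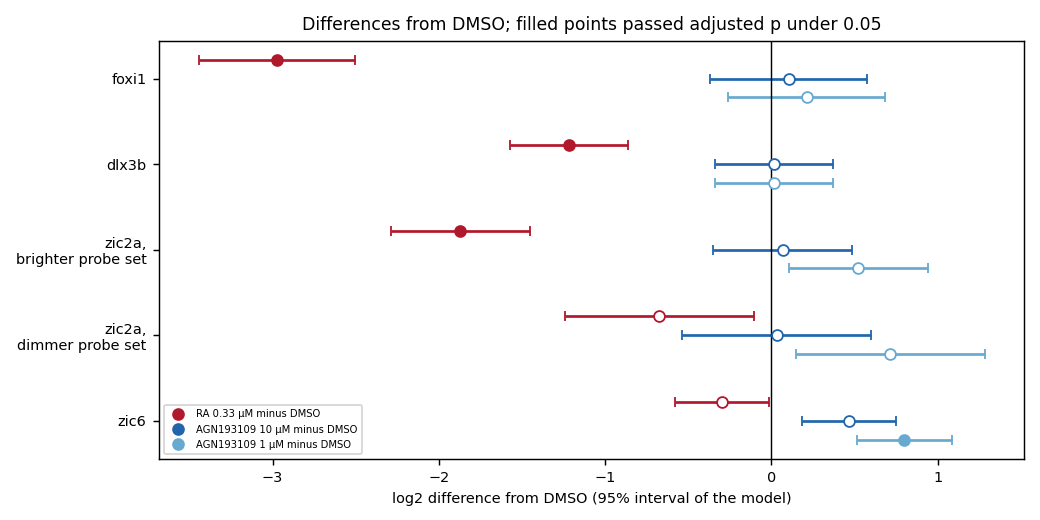
Log2 difference of each member probe set from DMSO, with the 95% interval of the model as a bar, for RA, AGN193109 at 10 µM and AGN193109 at 1 µM (n = 4 arrays per group); filled points passed an adjusted p under 0.05. The filled points are foxi1 (-2.97), dlx3b (-1.22) and the brighter zic2a probe set (-1.87) under RA, and zic6 (0.80) under the antagonist at 1 µM.

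The members and gene lists were chosen with earlier results of these data known, so the shares set beside their counts test no set. Counted over probe sets, RA gave calls for 3 of the 5 members, all lower, where 5.75% of all tested probe sets were called, 2.57% lower and 3.18% higher. All 5 member probe sets had their 4 RA arrays below the 4 DMSO arrays, which held for 4.64% of all tested probe sets. AGN193109 at 10 µM gave limma calls for 0 of 5, with 0.397% of all probe sets called and 0.0844% called higher. At an unadjusted p under 0.05 there was 1 of 5, zic6, against 5.15% of all probe sets. With array weights 1 of 5, zic6 again, was called, as were 255 of all tested probe sets. At 1 µM, 1 of 5 was called, with 0.144% of all probe sets called and 0.0253% called higher, which is 3 probe sets. There zic6 and both zic2a probe sets had an unadjusted p under 0.05, as did 6.28% of all probe sets. The 4 antagonist arrays lay above the 4 DMSO arrays for zic6 at either dose, as they did for 3.28% of all probe sets at 10 µM and 1.09% at 1 µM. Between the doses, 0 of 5 members were called by limma (zic6 and both zic2a probe sets, so 3, had an unadjusted p under 0.05, as did 8.92% of all probe sets), and 0.00844% of all probe sets. The dimmer zic2a probe set counted here passed the filter only through its 1 µM arrays.

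RA and AGN193109 at 10 µM were also compared with each other, a contrast that uses the same RA arrays but no DMSO array. Here 4 of the 5 member probe sets were called, all lower in RA, with 8.85% of all probe sets called and 4.06% called lower. The log2 differences were -3.08 for foxi1 (adjusted p = 2.42e-08), -1.94 for the brighter zic2a probe set (adjusted p = 1.7e-06), -1.23 for dlx3b (adjusted p = 5.61e-05) and -0.76 for zic6 (adjusted p = 0.000798). For the dimmer zic2a probe set the value was -0.71 (adjusted p = 0.145). For zic6 the RA mean of 4.38 was 1.69-fold below the mean of 5.14 at 10 µM, with no overlap, as for 6.71% of all probe sets. These calls held without any single array.

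Within each array the log2 difference between 2 member genes was taken, and its RA mean was set against its DMSO mean. Of the 6 pairs of member genes, the 3 with zic6 are not read here, since its DMSO mean of 4.68 lay so near log2 4 that it had little room to fall. The difference of foxi1 minus dlx3b was lower in RA by a log2 value of -1.76 and that of foxi1 minus zic2a by -1.10, and for dlx3b minus zic2a the value was 0.65. In each of these 3 pairs the 4 RA arrays did not overlap the 4 DMSO arrays (exact two-sided permutation p = 0.0286, the smallest that 4 against 4 can give; adjusted over the 6 pairs, 0.0286). With RA and DMSO exchanged only between arrays of the same replicate number, the exact two-sided permutation p was 0.125 for each pair, the smallest that 4 numbers allow, so no pair passed the test in that form. The pairs with foxi1 depended on the low end of the scale: with 16 added to every intensity before the log, foxi1 minus dlx3b had -0.96 (exact permutation p adjusted over the pairs 0.0343) and foxi1 minus zic2a had -0.29 (0.143).

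The other Zic genes did not all fall under RA. For the 6 Zic genes tested, which include the members zic2a and zic6, RA gave 3 called lower, zic2a among them, and 0 higher. Their median log2 difference was -0.955 against 0.015 over all tested probe sets, of which 2.57% were called lower. The gene next to zic2a on chromosome 9, zic5, had log2 intensities of 4.20, 5.26, 4.88 and 5.09 in RA embryos and 6.99, 7.86, 7.72 and 7.10 in DMSO embryos. It fell by 2.56 ± 0.23 (SE, adjusted p = 6.94e-07). Its arrays at 1 µM of the antagonist, 8.59, 8.13, 8.19 and 8.19, were all above DMSO, as those of zic6 were, though the difference of 0.86 was not called (adjusted p = 0.45). Besides zic2a and zic5, zic4 was called (-1.20, adjusted p = 0.0399). Its RA replicate 2 overlapped the DMSO arrays, and the call ended without any 1 of the other 7 arrays (adjusted p 0.0547 to 0.165). It also ended with quantile normalization, with 16 added before the log, with no filter and in a fit of only the 2 groups (adjusted p = 0.0552, 0.0532, 0.0634 and 0.124). Values for zic1 were -0.71 (adjusted p = 0.0932) and for zic2b, a close relative of zic2a, 0.37 (adjusted p = 0.248), with a second zic2b probe set at 0.27 (adjusted p = 0.332).

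Under AGN193109 at 1 µM all 6 tested Zic genes, members included, had differences above 0. Their median was 0.448, against 0.005 over all probe sets. The 1 called was the member zic6, where 0.144% of all probe sets were called. At an unadjusted p under 0.05 were 4 (6.28% of all probe sets), the members zic2a and zic6 among them. Outside the members the differences were 0.12 for zic1, 0.37 for zic2b, 0.16 for zic4 and 0.86 for zic5, none called. At 10 µM limma called 0 of 6, with 3 below 0 and a median of -0.045. Of the 6, 1 had an unadjusted p under 0.05 (5.15% of all probe sets), the member zic6. A near-identical relative can bind the same probes, which these values cannot resolve.

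**Figure D3:**
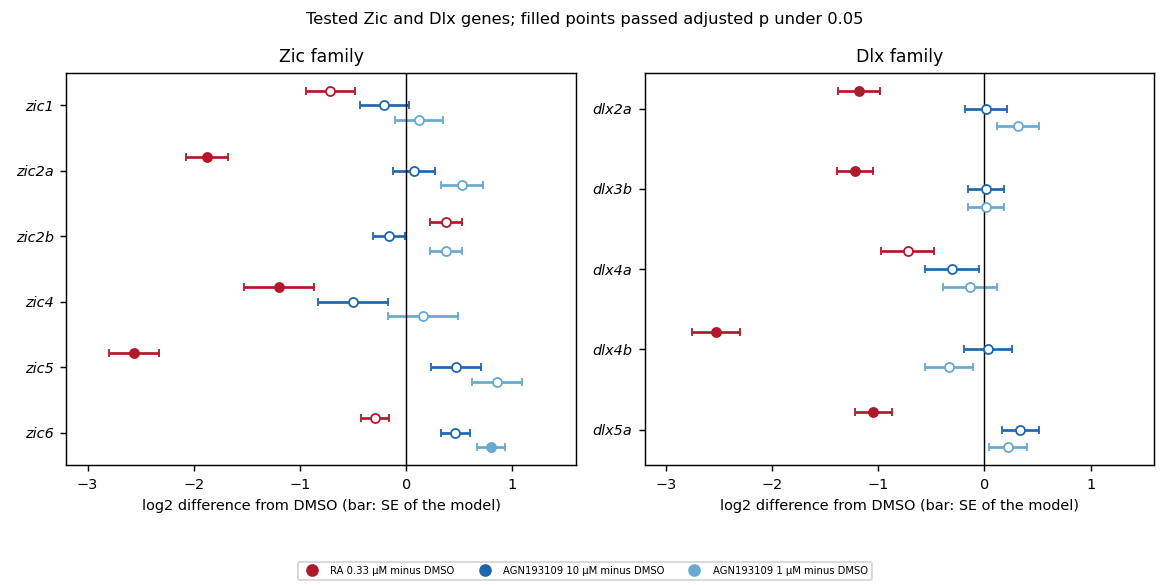
Log2 difference from DMSO of the tested Zic genes and Dlx genes under RA, AGN193109 at 10 µM and AGN193109 at 1 µM, with the standard error of the model as a bar (n = 4 arrays per group); filled points passed an adjusted p under 0.05. Under RA the 5 Dlx genes lie below 0 and 4 of them are filled, while zic2b lies at 0.37; under the antagonist zic6 at 1 µM is the filled point.

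Of 8 Dlx genes listed, 5 were tested; dlx1a, dlx2b and dlx6a did not pass the filter. Under RA 4, the member dlx3b among them, were called lower, as 2.57% of all tested probe sets were, and 0 higher, with a median of -1.185. The pair dlx3b and dlx4b lie next to each other on chromosome 12. In dlx4b the log2 intensities were 3.01, 3.86, 3.15 and 3.71 in RA embryos, all below log2 4, against 6.07, 5.54, 6.34 and 5.90 in DMSO embryos, so that it was at least 3.90-fold lower (adjusted p = 5.02e-07). The forebrain and pharyngeal arch genes dlx2a (-1.18, adjusted p = 0.000639) and dlx5a (-1.05, adjusted p = 0.000671) also fell. Their RA arrays ran from 3.93 to 4.70 and from 3.84 to 4.21, near the filter level. The sizes of their falls are therefore not compared with that of dlx3b. For dlx4a the difference was -0.72 without overlap (adjusted p = 0.137). The antagonist gave limma calls for 0 of the 5 at either dose and 0 at an unadjusted p under 0.05.

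Genes of the preplacodal region, the horseshoe-shaped field from which all cranial placodes arise, were few on the array. Of 8 listed, 3 were tested, and 1 was called under RA, where 5.75% of all tested probe sets were called. The homeodomain gene six4b had log2 intensities of 5.42, 5.96, 6.05 and 5.97 in RA embryos and 8.09, 7.96, 8.16 and 8.03 in DMSO embryos. It fell by 2.21 ± 0.14 (SE, adjusted p = 1.02e-08). Its relative six4a had -0.77 (adjusted p = 0.0724), and the cofactor gene eya1 had -0.13 (adjusted p = 0.854).

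The anterior placodes, which form the olfactory epithelium, lens and pituitary, and the otic placode gave different counts under RA, a contrast that was not itself tested. Among all tested probe sets, 2.57% were called lower under RA and 3.18% higher. Of 12 anterior genes listed, 5 were tested. Their median was -2.530, the fitted value of dlx4b, whose RA arrays all lay below log2 4, so its size rests on the low end of the scale. All 5 were called lower. Besides dlx4b these were six3b (-3.17, adjusted p = 6.97e-07) and six3a (-2.10, adjusted p = 0.00123), which the eye field and forebrain also express, the pituitary gene hesx1 (-2.66, adjusted p = 1.14e-05), and the forebrain and olfactory gene emx3, at least 2.57-fold lower (adjusted p = 3.91e-06). In hesx1 the RA arrays ran from 3.33 to 4.20, so the size of its fall rests on values near the bottom of the scale. Of 15 otic genes listed, 10 were tested, with 3 called lower, 1 called higher and a median of -0.012. This list leaves out foxi1 (-2.97), dlx3b (-1.22) and dlx4b (at least 3.90-fold lower), which also act in the otic placode and were called lower. The contrast in counts thus depends in part on how the lists were drawn. The paired-domain gene pax2a fell by 1.66 ± 0.19 (SE, adjusted p = 8.6e-06), and the hindbrain signal gene fgf3, which helps to induce the ear, was at least 2.19-fold lower (adjusted p = 7.66e-06). By contrast pax8, the earliest of the otic pax genes and one that depends on foxi1 in zebrafish, had 0.54 (adjusted p = 0.152). In pax8 the RA arrays ran from 5.94 to 6.83 and the DMSO arrays from 5.69 to 5.96, so that they overlapped slightly. Tissues were not separated in these whole embryos, so the pax2a, fgf3 and pax8 values are not readings of the otic placode alone. The T-box gene tbx2b had -0.65 (adjusted p = 0.0386), a call that ended without any 1 of DMSO replicates 2 and 4 and RA replicates 1, 3 and 4 (adjusted p 0.0810 to 0.136), with 16 added before the log (adjusted p = 0.0613) and in the fit of only the 2 groups (adjusted p = 0.0852).

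At the neural border and in the non-neural ectoderm, 12 of 17 listed genes were tested, with 6 called lower and 1 higher under RA (2.57% and 3.18% over all tested probe sets) and a median of -0.261. Those lower were the Iroquois genes irx7 (-4.99, adjusted p = 3.85e-09) and irx1a (-2.92, adjusted p = 2.06e-10), the BMP-responsive border genes msx3 (-1.19, adjusted p = 0.00157), msx2b (-1.14, adjusted p = 0.0237) and msx1b (-0.71, adjusted p = 0.00278), and the crest gene foxd3 (-0.64, adjusted p = 0.000253). Further msx3 probe sets had -1.06 (adjusted p = 0.00599) and, near the filter level, -0.06 (adjusted p = 0.929). The msx2b call ended without any 1 of DMSO replicate 2 and RA replicates 1 and 3 (adjusted p 0.0685 to 0.0907) and in the fit of only the 2 groups (adjusted p = 0.0731). Its RA arrays ran from 2.93 to 4.35, so the size of its fall rests on values near the bottom of the scale. The gene called higher was irx1b (0.79, adjusted p = 0.00555), in the opposite direction to its paralogue irx1a. Genes known in zebrafish as competence factors of the non-neural ectoderm, together with foxi1, were not called: tfap2a had 0.11, tfap2c 0.28, gata2a 0.35 and gata3 0.23, with adjusted p between 0.372 and 0.837.

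Of 14 genes listed for signals at the border, 11 were tested, with 5 called lower and 1 higher under RA (2.57% and 3.18% over all tested probe sets) and a median of -0.653. The BMP ligand genes bmp2b (-0.87, adjusted p = 0.00847) and bmp7a (-1.39, adjusted p = 0.0232), the BMP antagonist gene chrd (-0.70, adjusted p = 0.00221), the BMP-induced gene szl (-2.58, adjusted p = 0.000118) and fgf3 were lower, and the ligand gene fgf8a was higher (0.55, adjusted p = 0.0124). Ligand and antagonist genes of the BMP pathway were thus both among the calls, and bmp4 had 0.09 (adjusted p = 0.918). The bmp7a call ended without any 1 of DMSO replicates 1, 2 and 4 and RA replicates 2 and 4 (adjusted p 0.0514 to 0.0796) and in the fit of only the 2 groups (adjusted p = 0.0792). In the preplacodal, otic, anterior, border and signal lists limma called 0 genes at either dose of the antagonist. Per list, 0 to 4 genes had an unadjusted p under 0.05 at 10 µM (5.15% of all probe sets) and 0 to 2 at 1 µM (6.28%). The 4 were among the 10 tested otic genes. Of these, sox9a (-0.79), pax8 (-0.55) and sox3 (-0.23) had lower means at 10 µM than in DMSO, and fgf3 (0.48) a higher one.

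**Figure D4:**
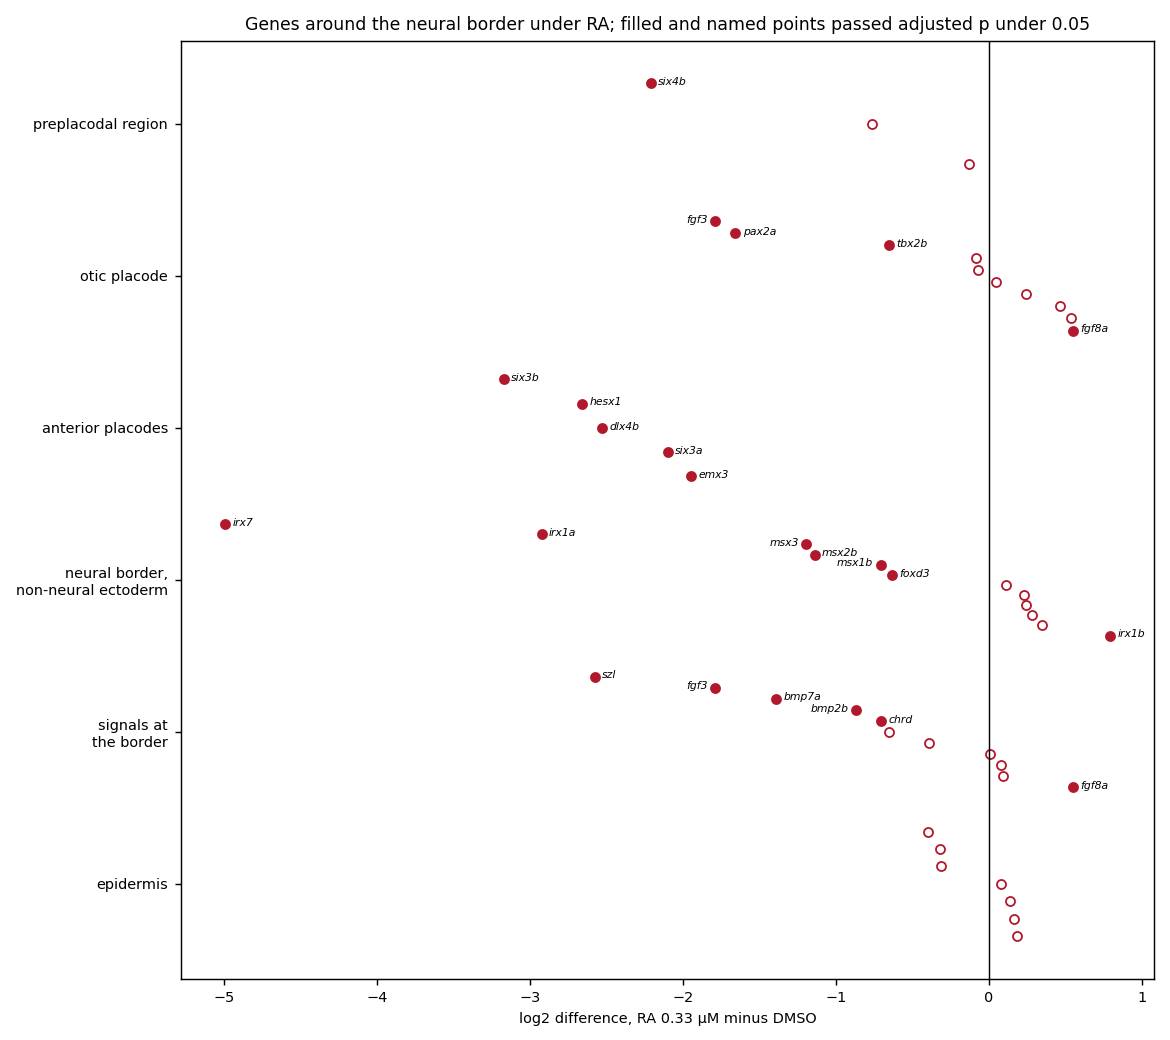
Fitted log2 difference between RA and DMSO embryos (n = 4 arrays each) for each tested gene of 5 lists around the neural border and of the epidermis markers, 1 point per gene; filled and named points passed an adjusted p under 0.05. All 5 tested anterior placode genes lie left of 0, the otic and border genes spread to both sides, and none of the 7 epidermis markers is filled.

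The tissues around the border were read through their markers. All 7 epidermis markers were tested and measured above log2 4 on every array, and limma called 0 under RA, 2 of them having an unadjusted p under 0.05, with differences of -0.39 to 0.19. Their summed intensity ranged from 59946 to 77629 in RA embryos and from 61999 to 66455 in DMSO embryos. Of the 3 neural plate markers, sox2 fell by 0.95 ± 0.12 (SE, adjusted p = 3.67e-05), sox3 had 0.05 and sox19a -0.18, and their summed intensity ranged from 7694 to 8074 in RA embryos, from 8478 to 9256 at 10 µM, from 9180 to 10790 at 1 µM and from 8707 to 9225 in DMSO embryos. The neural plate sum was lowest in RA, as the mean of every member probe set was, though of its 3 markers only sox2 was called. The ranges of the sum in the other 3 groups overlapped. Of the other tissue markers, 1 of 3 for notochord, 2 of 3 for paraxial mesoderm, 0 of 3 for endoderm, 1 of 1 for the yolk layer and 0 of 1 for the hatching gland were called, all lower in RA. Among all tested probe sets, 5.75% were called under RA and 2.57% were called lower. The crest markers sox10 (1.06) and crestin (1.06) were higher in RA while foxd3 was lower, and the part of any of these shifts in the member values was not tested.

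The genes whose log2 intensities followed a member most closely over the 16 arrays were named, 5 per member among 7117 other genes, by Pearson's r. These values are descriptions, and since the 4 groups differ so much in the members, they largely restate the group means. Across arrays foxi1 was most like irx7 (r = 0.987), isl2a (0.982), aplnra (0.979), dmbx1a (0.979) and six4b (0.979). For dlx3b the nearest genes were hoxa9b (0.956), tbx16 (0.955), isl2a (0.951), en2a (0.949) and msgn1 (0.948), and for zic2a they were nherf1a (0.975), zic5 (0.974), otx1 (0.969), six7 (0.969) and isl2a (0.968). Over the 12 arrays without RA these values fell to between -0.172 and 0.556 for foxi1, 0.440 and 0.617 for dlx3b, and 0.495 and 0.732 for zic2a.

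For zic6 the nearest genes were tbx15 (r = 0.926), podxl (0.870), sox2 (0.859), bcor (0.857) and bmp3 (0.857), and over the 12 arrays without RA the values were 0.713 to 0.883. None of these 5 was among the nearest of another member. The T-box gene tbx15 had log2 intensities of 4.64, 3.80, 3.92 and 3.79 in RA embryos, 5.74, 4.98, 5.98 and 5.28 under AGN193109 at 10 µM, 6.19, 5.76, 5.84 and 6.08 at 1 µM, and 4.65, 4.77, 4.29 and 4.75 in DMSO embryos. All antagonist arrays were above all DMSO arrays, as for zic6. It was called at 1 µM (1.35, adjusted p = 0.0157) and not at 10 µM (0.88, adjusted p = 0.154) or in RA (-0.58, adjusted p = 0.194). The call at 1 µM ended without DMSO replicate 1 or 3 or replicate 1 of that dose (adjusted p 0.0524 to 0.0596), and without both replicates 1 and 4 of that dose the adjusted p was 0.279. In the brightest sox2 probe set the arrays of either dose likewise lay above DMSO. Its differences were 0.25 at 10 µM (adjusted p = 0.973) and 0.43 at 1 µM (adjusted p = 0.545). A second tested sox2 probe set overlapped DMSO at both doses. Its mean was highest at 10 µM, with differences of 0.55 there (adjusted p = 0.679) and 0.40 at 1 µM (adjusted p = 0.745).

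**Figure D5:**
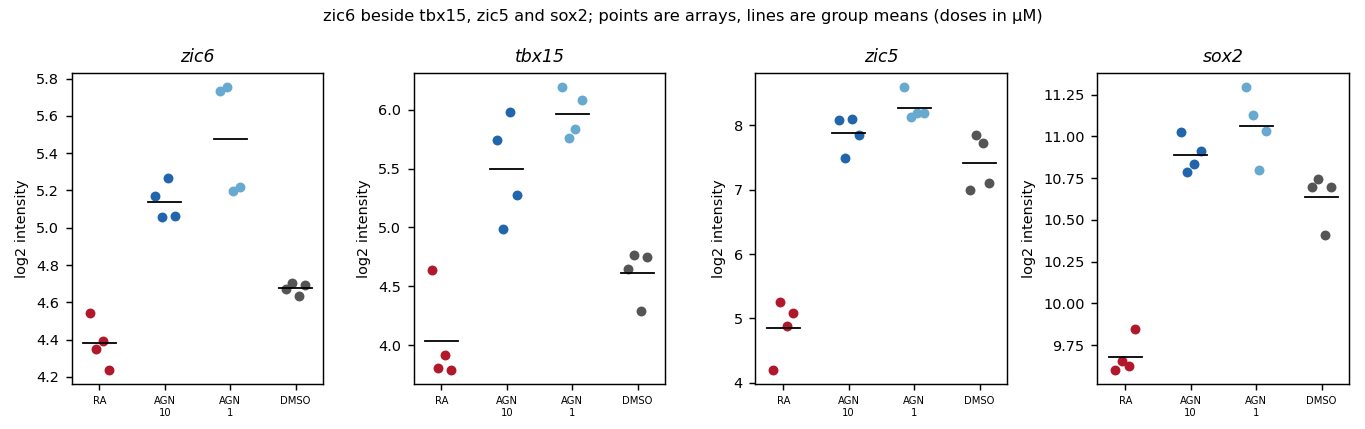
Log2 intensity of zic6, tbx15, zic5 and sox2 on each of the 16 arrays (points) with group means (lines), in RA, AGN193109 at 10 µM, AGN193109 at 1 µM and DMSO embryos; the y axes differ between panels. The arrays at 1 µM lie above all DMSO arrays in each of the 4 panels, and the group means run in the same order in all 4, with RA lowest and 1 µM highest. The sox2 panel shows its brightest probe set, and a second one overlapped DMSO and had its highest mean at 10 µM. The genes tbx15 and sox2 were picked for their likeness to zic6 over these same arrays, and zic5 was picked from the Zic genes. The shared order of the panels is therefore partly built in. The brighter zic2a probe set had the same order, whereas zic1, zic2b and zic4 had lower means at 10 µM than in DMSO (log2 differences -0.21, -0.16 and -0.50, none called).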

How the data were processed

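The deposited values are linear intensities, 1 per probe set and array, made by the authors with GCRMA per the submitters' processing notes; its version and any further scaling are not given in the sources used here. GCRMA corrects background, normalizes between arrays and summarises probes, so values near log2 4 hold little signal. Log2 of these intensities was used. The 115 control probe sets and those not above log2 4 on at least 4 of 16 arrays were left out. The 4 group means were fitted with limma 3.58.1 in R 4.3.3 (lmFit, eBayes, two-sided, Benjamini-Hochberg over 11843 probe sets), after a test on simulated data. Where all 4 arrays of a lower group were at or below log2 4, the fold is a bound against log2 4. Members and gene lists were chosen with earlier results of these data known; a gene is represented by its brightest probe set. The genes named were all members, all called or highest-ranking members of those lists, genome neighbours, and the 5 genes most like each member. No sequences were used. Gene names came from the platform annotation (10802 with 1 symbol, 135 with several, 4680 with none), with symbols updated by the gene table of GRCz12tu. Same-numbered RA and DMSO arrays deviated together from their group means (r from 0.134 to 0.336). In every other pair of groups at least 1 same-numbered pair had r below 0. The mean r of same-numbered arrays was nevertheless positive in every pair of groups, from 0.138 to 0.223. The main model and the main permutation test used no pairing by number. A replicate block in limma and an exchange within same-numbered arrays were run as alternatives. The number of arrays limits the precision.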

Additional observations from a re-analysis of the deposited data

How the results depend on the processing

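The alternatives changed 1 choice at a time: quantile normalization, centring on array medians, an offset of 16 before the log, no filter, a filter at log2 5, array weights, a fit of only the 2 groups compared, trend and robust variance, the replicate number as a block, and each array left out; leaving out both 1 µM replicates 1 and 4 was added after seeing the data. No value of a member changed direction past its test. The RA calls of foxi1, dlx3b and zic2a held under all of them; without 1 array their log2 differences ran from -3.18 to -2.74, -1.36 to -1.11 and -2.02 to -1.65. With the offset of 16 foxi1 had -2.13 in RA against DMSO and -2.22 in RA against 10 µM, in place of -2.97 and -3.08. The zic6 call at 1 µM ended in the fit of only the 2 groups (0.80, adjusted p = 0.362), without 6 of 8 single arrays (0.71 to 0.81, adjusted p 0.0561 to 0.0800; over all 8, 0.71 to 0.89 and 0.0117 to 0.0800) and without both arrays (0.80, adjusted p = 0.0634). With array weights zic6 was called at 10 µM too (0.50, adjusted p = 0.00814).

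Counts of called probe sets moved most with array weights, to 1194 for RA, 255 for AGN193109 at 10 µM and 1946 for RA against AGN193109 at 10 µM, from 681, 47 and 1048. At 1 µM the 17 calls became 7 in the fit of only the 2 groups, and centring gave 2 calls between the doses in place of 1. Without 1 array the counts ran from 547 to 655 for RA, 29 to 44 at 10 µM (29 without DMSO replicate 1 and 30 without replicate 1 of that dose), 9 to 17 at 1 µM (9 without DMSO replicate 1 and 11 without DMSO replicate 2), 1 to 3 between the doses (3 without 1 µM replicate 2, 2 without 1 µM replicate 3) and 821 to 1039 for RA against 10 µM. The offset of 16 took the foxi1 minus zic2a value to -0.29 (adjusted permutation p = 0.143), foxi1 minus dlx3b to -0.96 and foxi1 minus zic6 to -1.95. The dimmer zic2a probe set was called in RA against DMSO with array weights (-0.83, adjusted p = 0.0320) and with only the 2 groups (-0.67, adjusted p = 0.0218), and in RA against 10 µM with array weights (-0.87, adjusted p = 0.0170). The causes of these shifts were not tested, and the fits with arrays left out also hold fewer arrays.

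With the replicate block the counts were 804 for RA, 49 at 10 µM, 18 at 1 µM, 1 between the doses and 1205 for RA against 10 µM. Under the block zic6 at 1 µM had an adjusted p of 0.0219, and the dimmer zic2a probe set was called in RA against 10 µM (-0.71, adjusted p = 0.0444); in limma the block changed no other call of a member. Exchanging RA and DMSO only within same-numbered arrays, an alternative also added after seeing the data, gave an exact p of 0.125, the smallest it allows, for foxi1 minus dlx3b (-1.76), foxi1 minus zic2a (-1.10), dlx3b minus zic2a (0.65), the pairs with zic6 that have little room to fall (-2.68 for foxi1, -0.92 for dlx3b, -1.58 for zic2a) and the brighter minus the dimmer zic2a probe set (-1.20), each of which had 0.0286 without the block. Of the 8 arrays of each pair of groups, 2 to 6 correlated best with the array of their own number in the other group.

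Limits: 2 of 5 member probe sets, zic6 and the dimmer zic2a one, lie near the bottom of the scale, as foxi1 does in RA. Exposure length differs between RA and the other groups, and the DMSO percentage of the RA and AGN193109 groups is not recorded. Each group has 4 arrays.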

Other observations

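All 6 tested Zic genes, the members zic2a and zic6 included, had lower means at 10 µM than at 1 µM of AGN193109. The log2 differences ran from -0.655 to -0.327 with a median of -0.423, against 0.008 over all tested probe sets. By limma 0 of the 6 were called (adjusted p 0.554 to 0.632), and 3 had an unadjusted p under 0.05, against 8.92% of all tested probe sets. For zic2b the 10 µM arrays ran from 11.90 to 12.35 and the 1 µM arrays from 12.48 to 12.93, and they did not overlap, nor did those of zic4 and zic5, where 2.14% of all probe sets had their 10 µM arrays below all 1 µM arrays. In zic6, zic1 and zic2a they overlapped.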
